A study of Mus musculus with 12 samples.

Results

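The livers of 6 mice labelled Rev KO, which carry the Rev-erbα-/- genotype, were compared between day and night, 3 mice at ZT8 and 3 at ZT20. ZT is zeitgeber time, in hours after lights on, so that ZT8 lies in the light phase and ZT20 in the dark phase, when mice are active and feed. These 6 belong to a series of 12 RNA-seq libraries, made from the poly(A) tail of liver RNA, and the other 6 come from wild-type mice at the same times, 3 and 3. All 12 animals were males of 12 weeks on a 129Ola/C57BL6 background, kept in 12 h light and 12 h dark with free access to food. The knockout is not restricted to the liver, so that the animals' other tissues also lacked REV-ERBα. Every gene was considered, and of 38926 gene symbols 14488 had enough reads for a test. The question was which daily differences of the liver transcriptome remained without REV-ERBα, with the wild-type mice measured in the same way as the reference.

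REV-ERBα is a nuclear receptor that represses transcription. In the core loop of the clock, BMAL1 (encoded by Arntl) pairs with CLOCK or its paralog NPAS2 on E-boxes and drives the Per, Cry, Nr1d1, Nr1d2 and Dbp genes, and PER and CRY proteins shut this drive off. In a second loop, REV-ERBα and its paralog REV-ERBβ (Nr1d2) compete with the activating ROR receptors for RORE sites in genes such as Arntl, so that these genes are low when REV-ERB is abundant, which in mouse liver is late in the day. Sites of another kind, the D-boxes, are bound by DBP, TEF and HLF as activators and by NFIL3 as a repressor. In the liver, daily rhythms also follow feeding, body temperature and hormones such as glucocorticoids, which reach the tissue through routes other than its own clock.

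The promoters of 8 genes are shown to set these sites beside the values given later. They run from 250 bases before to 50 after the RefSeq start in GRCm38.p6, the assembly known as mm10. Capitals mark the E-box CACGTG, the D-boxes TTATGTAA and TTATGCAA, or the RORE, spelled as AAN followed directly by TAGGTCA with N for any base, each searched on both strands. The first 3, with E-boxes and no D-box or RORE, belong to genes that fell from ZT8 to ZT20 in both genotypes. They are Bhlhe41 (chr6:145865371-145865670, minus strand), Tef (chr15:81802423-81802722, plus strand) and Ciart (chr3:95882179-95882478, minus strand), which the files list as Gm129.
Bhlhe41: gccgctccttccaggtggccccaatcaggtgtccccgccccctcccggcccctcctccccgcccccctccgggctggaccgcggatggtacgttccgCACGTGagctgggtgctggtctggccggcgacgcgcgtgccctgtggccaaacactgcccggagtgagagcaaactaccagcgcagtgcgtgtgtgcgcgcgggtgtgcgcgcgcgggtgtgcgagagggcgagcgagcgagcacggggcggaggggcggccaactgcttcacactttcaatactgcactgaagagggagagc
Tef: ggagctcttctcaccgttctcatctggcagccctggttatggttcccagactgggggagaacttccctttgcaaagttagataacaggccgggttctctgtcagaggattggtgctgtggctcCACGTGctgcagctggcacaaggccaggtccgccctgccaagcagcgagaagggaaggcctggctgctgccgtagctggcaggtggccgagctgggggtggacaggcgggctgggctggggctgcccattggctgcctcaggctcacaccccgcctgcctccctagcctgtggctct
Ciart: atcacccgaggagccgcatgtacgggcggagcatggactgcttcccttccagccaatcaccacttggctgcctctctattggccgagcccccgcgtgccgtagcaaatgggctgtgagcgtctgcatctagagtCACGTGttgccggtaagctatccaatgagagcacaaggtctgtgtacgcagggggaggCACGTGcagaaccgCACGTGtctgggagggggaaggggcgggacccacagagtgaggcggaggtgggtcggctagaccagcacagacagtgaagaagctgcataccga
A second group of 3 promoters holds D-boxes, with an E-box as well in Per1 (chr11:69098699-69098998, plus strand). The others are Per3 (chr4:151044616-151044915, minus strand) and Cyp2a5 (chr7:26835089-26835388, plus strand). All of these genes fell at ZT20 in both genotypes.
Per1: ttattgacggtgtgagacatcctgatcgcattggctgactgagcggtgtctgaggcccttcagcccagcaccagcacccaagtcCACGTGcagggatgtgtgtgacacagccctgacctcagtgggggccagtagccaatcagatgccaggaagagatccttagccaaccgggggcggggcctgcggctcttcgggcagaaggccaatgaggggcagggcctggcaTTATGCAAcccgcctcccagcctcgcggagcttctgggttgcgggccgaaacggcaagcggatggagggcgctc
Per3: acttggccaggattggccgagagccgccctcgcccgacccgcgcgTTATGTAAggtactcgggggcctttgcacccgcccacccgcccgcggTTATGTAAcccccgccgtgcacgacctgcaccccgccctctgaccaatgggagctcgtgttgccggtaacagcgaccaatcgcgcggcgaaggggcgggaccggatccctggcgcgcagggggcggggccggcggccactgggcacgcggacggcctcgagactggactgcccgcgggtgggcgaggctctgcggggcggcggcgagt
Cyp2a5: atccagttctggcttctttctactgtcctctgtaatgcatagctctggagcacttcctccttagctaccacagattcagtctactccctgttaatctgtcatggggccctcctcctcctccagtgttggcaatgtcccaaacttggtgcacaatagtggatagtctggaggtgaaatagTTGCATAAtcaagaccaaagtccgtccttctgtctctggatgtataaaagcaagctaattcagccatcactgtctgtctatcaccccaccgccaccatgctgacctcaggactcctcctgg
The last pair belongs to genes whose rise at ZT20 was far smaller in Rev KO than in wild type. Arntl (chr7:113207261-113207560, plus strand, the second start listed) holds a RORE 28 bases after its start, and Cry1 (chr10:85185005-85185304, minus strand) holds an E-box.
Arntl: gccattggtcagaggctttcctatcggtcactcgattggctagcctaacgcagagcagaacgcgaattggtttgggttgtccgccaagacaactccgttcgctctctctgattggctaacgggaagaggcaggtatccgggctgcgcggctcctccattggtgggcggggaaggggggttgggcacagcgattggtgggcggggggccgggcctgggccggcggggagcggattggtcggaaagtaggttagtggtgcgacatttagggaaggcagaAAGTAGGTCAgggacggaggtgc
Cry1: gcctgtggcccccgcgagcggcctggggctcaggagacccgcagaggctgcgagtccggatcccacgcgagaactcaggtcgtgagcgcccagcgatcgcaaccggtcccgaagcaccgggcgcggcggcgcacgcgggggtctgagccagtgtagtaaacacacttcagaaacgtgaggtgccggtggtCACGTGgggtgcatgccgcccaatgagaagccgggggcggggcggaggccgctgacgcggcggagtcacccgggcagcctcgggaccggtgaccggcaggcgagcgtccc

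The libraries held 17641809 to 26060192 counted reads. Levels are in CPM, the count scaled to the TMM-adjusted size of the library, and 3 counts correspond to 0.117 to 0.167 CPM. The gene counts cannot check the genotype at Nr1d1 itself. Reads on Nr1d1 were at 63.0, 71.8 and 80.5 CPM in Rev KO and at 129, 96.1 and 75.3 CPM in wild type at ZT8, and a count per symbol does not show which part of the gene the reads cover. Nr1d1 also overlaps Thra, which lies on the opposite strand, and counting without strand cannot assign reads from the overlap. A second measurement set the Rev KO times apart. Alignments to more than 1 place amounted to 2.29 to 2.72 per counted read at ZT8 and to 1.24 to 1.56 at ZT20. The wild-type libraries shifted the same way, with 1.76, 2.89 and 3.28 at ZT8 and 1.67, 1.67 and 1.56 at ZT20. Daily changes shared by the genotypes therefore go with this shift as well, and its part in the results was not tested. In wild type, the sum of 15 acute phase genes was 43800 and 54300 CPM in ZT8 replicates 2 and 3 and 19000 to 24800 CPM in the other 10 libraries, so comparisons with wild type are also given without that pair. The sums of markers of endothelial cells (283 to 308 CPM), Kupffer cells (399 to 537 CPM) and lymphocytes (10.5 to 15.5 CPM) overlapped between ZT8 and ZT20 in Rev KO, and none of 7 hepatocyte markers passed in Rev KO (edgeR, 0 also at an unadjusted p under 0.05 and by DESeq2). Over all tested genes 17.5% passed in Rev KO. The hepatocyte sums were 66200, 76200 and 93100 CPM at ZT8 and 90700, 98100 and 94300 CPM at ZT20 in Rev KO. In wild type they did not overlap, at 56400 to 77800 CPM at ZT8 and 99900 to 111000 CPM at ZT20. There 3 of the 7 markers were called higher at ZT20, against 13.8% of all tested genes. The part of this shift in the results was not tested.

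Without REV-ERBα, 2530 of 14488 genes (17.5%) differed between ZT8 and ZT20. Of these, 1274 (8.79% of the genes tested) were higher and 1256 (8.67%) lower at ZT20, so that the daily changes were evenly divided. Most were modest. The median absolute log2 change of the called genes was 0.50, 1018 changed at least 1.5-fold, 452 at least 2-fold and 114 at least 4-fold. In 2482 of the 2530 the 3 mice at ZT8 did not overlap the 3 at ZT20, against 35% of all genes tested. The calls were made from these same values, so this share describes them and is no separate support. The test was edgeR's quasi-likelihood test over all 12 samples with Benjamini-Hochberg adjustment at 0.05, and 4415 genes had an unadjusted p below 0.05. The count depended on single libraries, falling to 1663 without Rev KO ZT8 replicate 2 and to 1567 without Rev KO ZT20 replicate 2.

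More genes passed in wild type, 4018 (27.7%), with 2005 (13.8% of the genes tested) higher and 2013 (13.9%) lower. Counts of list members in wild type are to be read beside these larger shares. Of the daily changes found in Rev KO, 1417 (56.0% of the Rev KO calls and 35.3% of the wild-type calls) were also called in wild type in the same direction. They were made up of 724 that were higher and 693 that were lower at ZT20. Another 86 were called in opposite directions, and 1027 were called only in Rev KO, of which 785 had the same sign in wild type. As the 2 contrasts share no mouse, 2202 of the 2530 Rev KO calls (87.0%) having the same sign in wild type can be read beside 66.6% of all genes tested. Across the 14488 genes, which are not independent, the changes correlated with a Pearson r of 0.325 and a Spearman rho of 0.434. Without the wild-type ZT8 replicates 2 and 3, 1795 genes passed in wild type and 900 in both genotypes in the same direction.

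Passing in only 1 genotype is no test of a difference, so the difference of the daily changes was fitted itself. It passed for 852 genes (5.88%), of which 352 were among the Rev KO calls. A further 484 were called in wild type and not in Rev KO. Among the 1417 shared daily changes, the difference passed for 122, and the change was smaller in Rev KO for 105 of these and larger for 17. All 86 genes called in opposite directions passed, which their selection by 2 calls of opposite sign made all but certain. The count of 852 fell to 548 and 516 without replicate 2 of Rev KO ZT8 and ZT20, to 511 and 493 without replicate 2 of wild-type ZT8 and ZT20, and to 493 without both wild-type ZT8 libraries high in acute phase RNA. A daily change was counted as kept where the 95% interval of the difference lay within 1.5-fold in either direction. This held for 1241 of the 2530 Rev KO calls (49.1%), close to the 44% of all genes tested. The number was 765 without Rev KO ZT8 replicate 2 and 697 without Rev KO ZT20 replicate 2. Of the 452 changes of at least 2-fold, 25 were kept by this rule, 8 higher and 17 lower at ZT20.

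**Figure D1:**
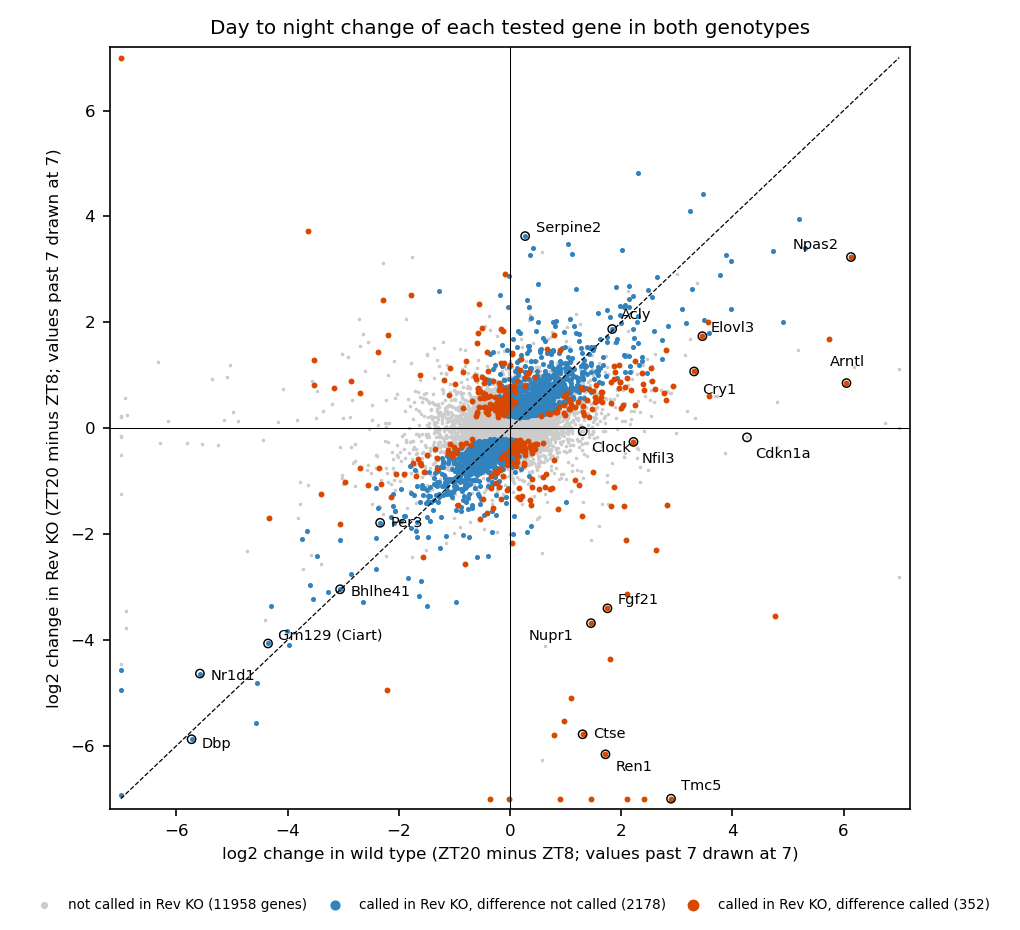
Log2 change from ZT8 to ZT20 of each of 14488 genes in wild type (horizontal axis) and in Rev KO (vertical axis), edgeR estimates from 3 against 3 mice. The dashed line marks equal change; Dbp, Gm129 (Ciart) and Bhlhe41 lie near it, Arntl, Cry1, Nfil3 and Clock lie to its right with Rev KO changes of -0.26 to 1.07, and Ctse, Ren1, Nupr1, Fgf21 and Tmc5 are above 0 in wild type and below 0 in Rev KO. Values past 7 are drawn at 7.

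The positive arm of the clock kept only part of its daily difference. Arntl was at 24.2, 25.7 and 22.7 CPM in the Rev KO livers at ZT8 and at 45.1, 44.8 and 41.1 CPM at ZT20. The groups did not overlap, and Arntl rose 1.8-fold (log2 0.85 ± 0.09 SE, adjusted p = 1.32e-05). In wild type it was at 0.795, 0.448 and 0.711 CPM at ZT8 and at 44.5, 45.2 and 43.0 CPM at ZT20, a 66.4-fold rise. The genotypes overlapped at ZT20 and lay far apart at ZT8, and the difference of the 2 changes was -5.20 ± 0.16 (95% interval -5.55 to -4.86, adjusted p = 3.93e-11). Clock, whose product is the partner of BMAL1, had no daily change that passed in Rev KO, with 81.2, 71.9 and 69.0 CPM at ZT8 and 77.2, 68.8 and 67.4 CPM at ZT20. In wild type Clock rose 2.47-fold, from 26.6 to 32.2 CPM at ZT8 to 71.1 to 75.2 CPM at ZT20, and the difference was -1.36 ± 0.12 (adjusted p = 5.04e-06). Npas2 was the member with the largest remaining rise, from 0.882, 0.611 and 0.489 CPM to 7.09, 6.85 and 4.75 CPM, or 9.4-fold (adjusted p = 3.15e-06). Its rise was 70.1-fold in wild type, where all 3 ZT8 libraries were below the level of 3 counts, so that this fold is not well fixed, and the difference of -2.90 (adjusted p = 0.00972) was lost without the wild-type ZT8 pair high in acute phase RNA (0.126).

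Most genes that ROREs are known to link to REV-ERBα showed the same compression. Of 10 such genes, 6 rose and 2 fell in Rev KO, against 8.79% and 8.67% of all tested genes. In wild type 9 rose and 1 fell, against 13.8% and 13.9% of all tested genes. The difference of the changes passed for 8, against 5.88% of all tested genes. The median log2 change of the 10 genes was 0.79 in Rev KO and 2.86 in wild type. The median of all genes tested was 0.00634 in Rev KO. Cry1, a repressor of the core loop, was at 26.2, 27.5 and 24.6 CPM at ZT8 and at 57.7, 57.2 and 49.4 CPM at ZT20, a 2.1-fold rise (adjusted p = 1.91e-05). The rise was 9.92-fold in wild type, from 4.98 to 7.68 CPM to 59.8 to 69.6 CPM. Nfil3, the D-box repressor, turned round. It was at 59.8, 60.1 and 58.5 CPM at ZT8 and at 51.0, 48.6 and 49.4 CPM at ZT20 in Rev KO, a fall of 1.2-fold (adjusted p = 0.0164), whereas it rose 4.66-fold in wild type (difference -2.48 ± 0.10, adjusted p = 6.67e-10). The fall in Rev KO is near the threshold, with an adjusted p of 0.055 without ZT8 replicate 2 and of 0.075 without ZT20 replicate 2.

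Elovl3, an elongase of very long fatty acids, rose from 216, 275 and 289 CPM to 908, 812 and 880 CPM in Rev KO, 3.33-fold against 11.0-fold in wild type (difference -1.72 ± 0.26, adjusted p = 0.00223). Insig2, a brake on the processing of SREBP proteins, rose 1.66-fold in Rev KO and 5.31-fold in wild type (difference -1.68 ± 0.21, adjusted p = 0.000436). Cdkn1a, the cell cycle inhibitor p21, did not pass in Rev KO, with 28.3, 32.4 and 42.5 CPM at ZT8 and 24.4, 30.2 and 36.9 CPM at ZT20. In wild type it stood at 1.93 to 2.82 CPM at ZT8 and rose 19.2-fold.

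**Figure D2:**
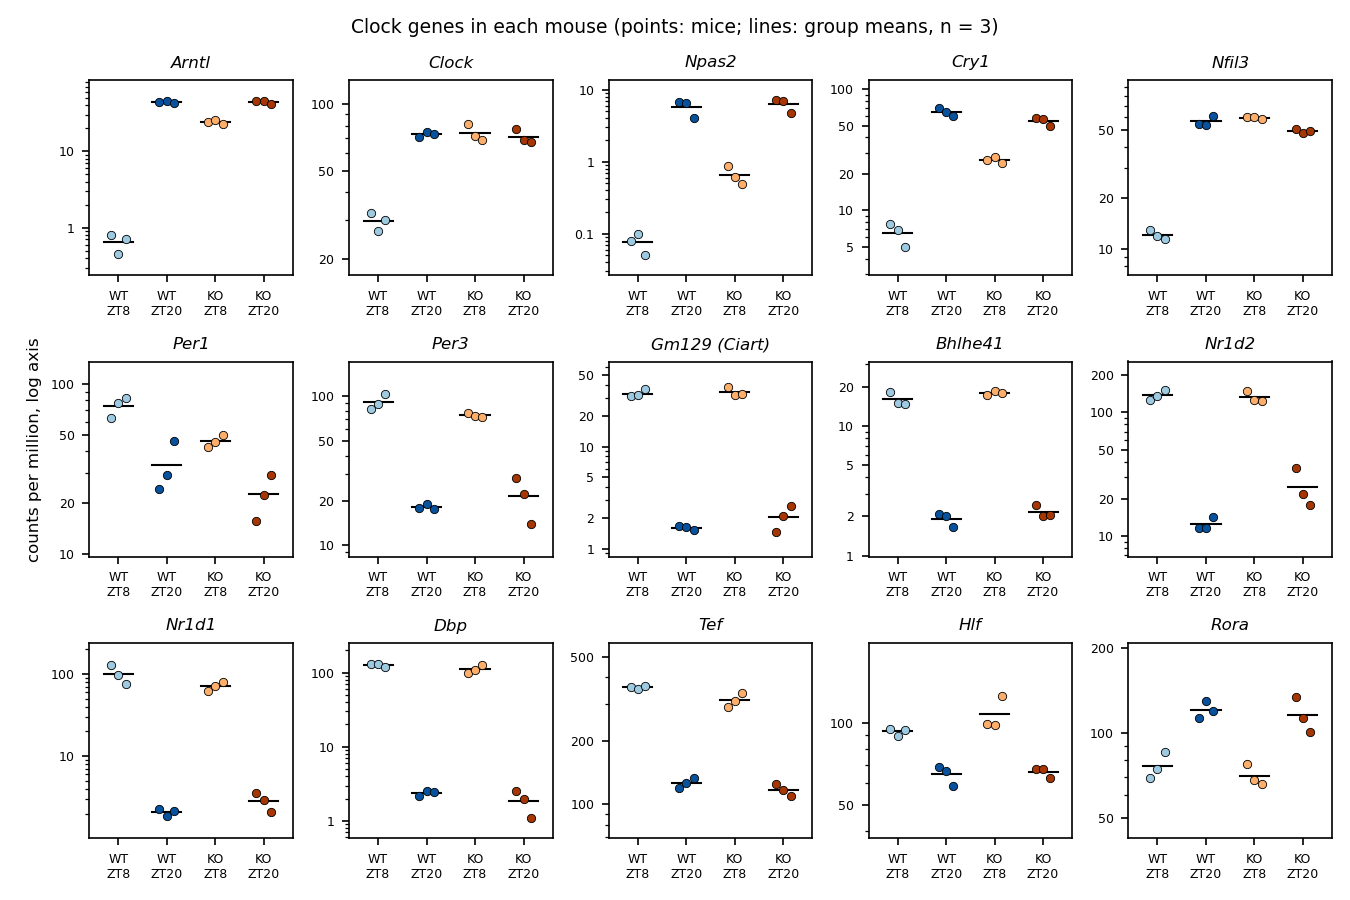
CPM (log axis) of 15 clock genes in each mouse, with lines at group means of 3 mice. For Arntl, Clock, Npas2, Cry1 and Nfil3 the genotypes lie close at ZT20 and the Rev KO points lie above the wild-type points at ZT8, while Gm129 (Ciart), Bhlhe41, Dbp, Tef, Hlf and Rora have like levels in both genotypes at each time.

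Part of the clock repressors also differed between the times in Rev KO. Of 8 repressors tested, 4 fell and 1 (Cry1) rose in Rev KO, with the same directions and calls in wild type. Over all tested genes, 8.67% fell and 8.79% rose in Rev KO, and 13.9% fell and 13.8% rose in wild type. Bhlhe41, which encodes DEC2, was at 17.3, 18.5 and 17.9 CPM at ZT8 and at 2.43, 2.02 and 2.04 CPM at ZT20. It fell 8.25-fold in Rev KO and 8.32-fold in wild type (adjusted p = 2.14e-09 in Rev KO), and the interval of the difference, -0.39 to 0.41, lay within 1.5-fold. Ciart, a repressor of CLOCK and BMAL1 whose promoter holds 3 E-boxes, was at 38.6, 31.9 and 32.7 CPM at ZT8 and at 1.47, 2.06 and 2.62 CPM at ZT20. The fall was 16.8-fold in Rev KO and 20.4-fold in wild type, with an interval of the difference of -0.20 to 0.77. Per3 fell from 76.6, 73.1 and 73.1 CPM to 28.5, 22.0 and 13.9 CPM, 3.45-fold against 5.05-fold in wild type (interval -0.06 to 1.16). Per1 fell 2.06-fold in Rev KO (adjusted p = 0.0305) from 42.7, 45.6 and 49.8 CPM to 15.7, 22.3 and 29.2 CPM. That call was lost on leaving out any Rev KO library but ZT20 replicate 3, at adjusted p values of 0.0621, 0.074 and 0.0814 without ZT8 replicates 1, 2 and 3 and of 0.0751 and 0.0931 without ZT20 replicates 1 and 2. Per2, Cry2 and Bhlhe40 did not pass in either genotype, though Bhlhe40, at a log2 change of -0.62 in Rev KO (adjusted p = 0.0914 by edgeR), did by DESeq2 (0.011 on 12 samples, 0.00611 on 6) and without ZT20 replicate 3 (0.0462).

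Among the nuclear receptors of the second loop, Nr1d2 fell from 149, 125 and 123 CPM to 35.1, 21.7 and 17.7 CPM in Rev KO. The fall was 5.33-fold against 11.1-fold in wild type, and the difference of 1.06 ± 0.31 did not pass by edgeR (adjusted p = 0.0808, interval 0.37 to 1.75) but did by DESeq2 (0.0029). Reads on Nr1d1 fell 24.9-fold in Rev KO, to 3.57, 2.96 and 2.09 CPM at ZT20, and 47.7-fold in wild type. That difference, 0.94 ± 0.34, did not pass by edgeR over 12 libraries (adjusted p = 0.157). It passed by DESeq2 (0.0297), without wild-type ZT8 replicate 3 (1.11, adjusted p = 0.04) and without both wild-type ZT8 libraries high in acute phase RNA (1.31, adjusted p = 0.0128). Rora, the activating counterpart, rose 1.64-fold in Rev KO and 1.58-fold in wild type, from 77.7, 68.2 and 65.8 CPM to 134, 113 and 101 CPM in Rev KO, and its change was kept within 1.5-fold.

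The D-box activators fell together. Dbp was at 99.2, 107 and 127 CPM at ZT8 and at 2.52, 1.99 and 1.11 CPM at ZT20 in Rev KO. It fell 58.8-fold (log2 -5.88 ± 0.18, adjusted p = 9.27e-10) and 53.0-fold in wild type, with an interval of the difference of -0.71 to 0.41. Tef fell from 290, 310 and 339 CPM to 125, 117 and 110 CPM, 2.67-fold against 2.85-fold, and its change was kept (interval -0.15 to 0.33). Hlf fell 1.63-fold against 1.44-fold and was kept as well. Of the genes that such factors are known to drive, Upp2, a uridine phosphorylase, fell from 882, 831 and 701 CPM to 205, 202 and 250 CPM, 3.68-fold against 3.45-fold in wild type (interval -0.46 to 0.27). Cyp2a5, a cytochrome P450 with a D-box in the promoter shown, fell from 1400, 1702 and 1401 CPM to 584, 659 and 748 CPM, 2.26-fold against 2.02-fold (interval -0.57 to 0.24). Usp2, a deubiquitinase, fell 3.18-fold against 3.73-fold, a call lost by edgeR in a fit of the 6 samples alone (adjusted p = 0.0519). Upp2 and Usp2 belong to a list of 15 liver clock outputs that did not move as 1 group. In Rev KO 4 of the 15 fell, 3 rose and 8 did not pass, against 8.67% and 8.79% of all tested genes that fell and rose. The difference of the changes passed for 6 of the 15. Not every named gene with a D-box in its promoter fell. Cyp2b10 holds one and rose by 4.42 on the log2 scale in Rev KO, a call described further below. Cyp2a4 holds one as well and did not pass in Rev KO (log2 0.10, adjusted p = 0.958 by edgeR).

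**Figure D3:**
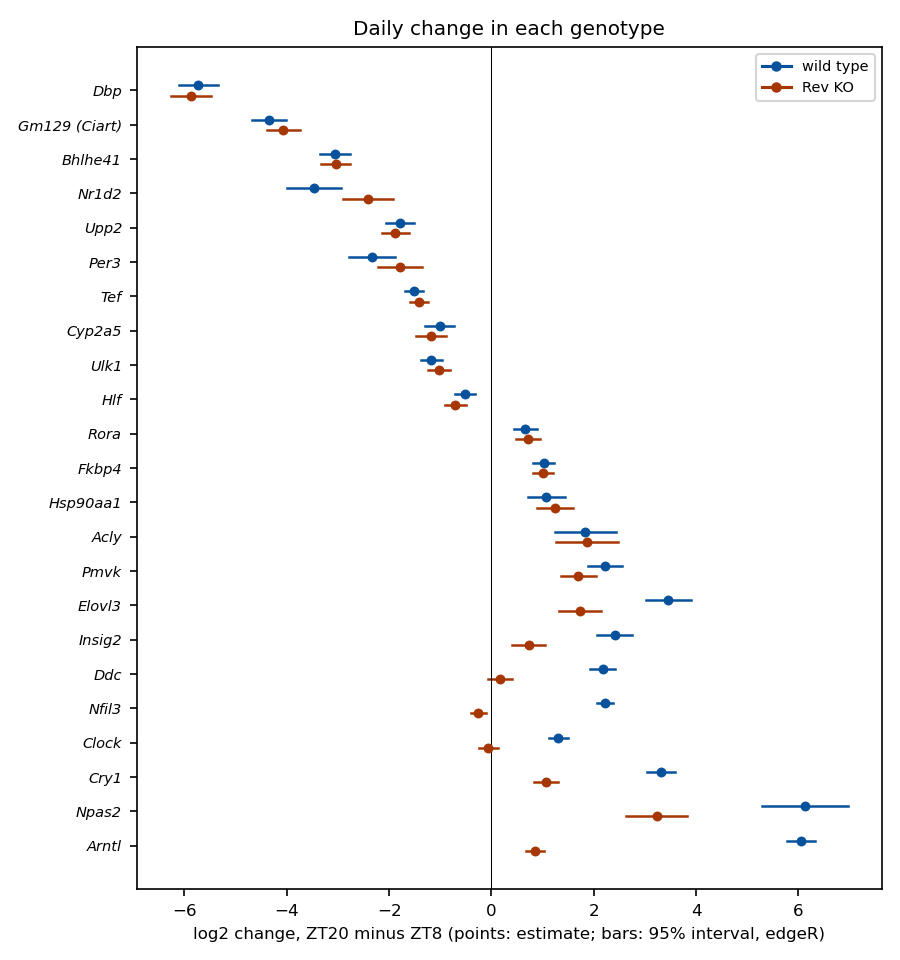
Log2 change from ZT8 to ZT20 with 95% intervals (edgeR) for 23 genes in wild type (blue) and Rev KO (brown). From Dbp to Pmvk the intervals of the genotypes overlap, except for Nr1d2, where they lie just apart, and from Elovl3 to Arntl they are well apart, with the Rev KO estimate nearer to 0.

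The motifs were counted in the promoters of 9961 of the tested genes, the ones that the RefSeq table holds. The E-box CACGTG was present in 16.2% of the 904 genes that fell in Rev KO, in 13.7% of the 926 that rose and in 10.8% of those not called. In the 123 that fell at least 2-fold the share was 21.1%, against 11.6% of all tested genes and 7.15% of all 32851 promoters in the table. The D-boxes were present in 2.21% of the genes that fell and 2.27% of those that rose, against 1.53% of all tested genes and 1.66% of all promoters. For changes of at least 2-fold the shares were 4.88% and 4.85%. The RORE was found in 4 of the 926 genes that rose and in none of the 904 that fell, against 0.211% of all tested genes and 0.219% of all promoters. These shares are descriptions, as a match is not a bound site and genes with more starts have more chances of a match (1.32 promoters per gene among those that fell, 1.28 over all).

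Most protein folding genes of the endoplasmic reticulum rose at night in Rev KO. Of 19 tested, 14 were higher and 1 lower at ZT20, against 8.79% and 8.67% of all tested genes, with a median log2 change of 0.54. In wild type 16 were higher and none lower, against 13.8% and 13.9% of all tested genes, with a median of 0.68. Hyou1, a chaperone of the lumen, was at 137, 154 and 188 CPM at ZT8 and at 487, 364 and 251 CPM at ZT20, 2.3-fold higher (adjusted p = 0.0076), and 3.2-fold higher in wild type. Pdia4, a disulfide isomerase, rose 1.86-fold against 2.12-fold (161, 177 and 192 CPM to 412, 337 and 240 CPM in Rev KO). Calr rose by 0.81 on the log2 scale against 0.73. Herpud1, a component of the degradation machinery, went the other way and fell by 0.71 in Rev KO, while it did not pass in wild type (0.11), and the difference passed (adjusted p = 0.023). Sdf2l1 and Manf were called too (2.54-fold and 2.01-fold higher), but these calls were lost without single Rev KO libraries. The adjusted p of Manf was 0.0605 and 0.0541 without ZT8 replicates 1 and 2. That of Sdf2l1 was 0.0687, 0.0784 and 0.0566 without ZT8 replicates 1, 2 and 3 and 0.0577 without ZT20 replicate 2.

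Cytosolic chaperones were divided. Of 22 tested, 9 rose and 3 fell in Rev KO, against 8.79% and 8.67% of all tested genes. In wild type 12 rose and none fell, against 13.8% and 13.9% of all tested genes. Hsp90aa1, which encodes the inducible form of HSP90, was at 28.7, 31.6 and 37.9 CPM at ZT8 and at 99.0, 74.8 and 59.5 CPM at ZT20, 2.37-fold higher (adjusted p = 0.000406) and 2.11-fold higher in wild type. Hsp90ab1, the constitutive form, rose 1.51-fold against 1.38-fold. Fkbp4, an immunophilin that works with HSP90 on steroid receptors, rose from 118, 118 and 131 CPM to 277, 241 and 219 CPM, 2.02-fold against 2.03-fold (interval of the difference -0.29 to 0.27). Hspb1 rose 3.8-fold from 0.666 to 0.934 CPM to 2.27 to 3.96 CPM. The 3 that fell were Hspa1b (2.44-fold, from 3.84, 3.83 and 5.92 CPM to 2.43, 1.64 and 1.51 CPM), Dnajb1 and Dnaja1. Nr3c1, which encodes the glucocorticoid receptor that these chaperones hold, was at 144, 120 and 117 CPM at ZT8 and at 116, 112 and 113 CPM at ZT20 and did not pass (adjusted p = 0.222).

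A part of the lipid synthesis genes was higher at night in Rev KO as well. Of 23 genes of cholesterol synthesis and uptake, 10 rose and none fell in Rev KO, against 8.79% and 8.67% of all tested genes. The median log2 change of the 23 was 0.40 in Rev KO. In wild type 16 rose and none fell, against 13.8% and 13.9% of all tested genes, with a median of 0.81. The difference of the changes passed for none of the 23 by edgeR or DESeq2 (8 at an unadjusted p under 0.05), so that the smaller count in Rev KO is not shown to be a smaller response of single genes. Pmvk, a kinase of the mevalonate pathway, was at 48.8, 40.9 and 37.6 CPM at ZT8 and at 124, 145 and 145 CPM at ZT20, 3.25-fold higher (adjusted p = 2.07e-05) against 4.67-fold in wild type. Lss, which closes the sterol ring, rose 2.23-fold from 104, 96.1 and 89.5 CPM to 198, 239 and 209 CPM.

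Of 16 genes of fatty acid synthesis, 8 rose and 1 fell in Rev KO, against 8.79% and 8.67% of all tested genes. The median log2 change of the 16 was 0.88 in Rev KO and 1.05 in wild type. Acly, which supplies cytosolic acetyl-CoA, was at 260, 237 and 244 CPM at ZT8 and at 906, 944 and 862 CPM at ZT20, 3.66-fold higher (adjusted p = 0.00124) and 3.58-fold higher in wild type. Acacb, an acetyl-CoA carboxylase, rose 3.55-fold against 6.03-fold. Pnpla3, a lipase that carbohydrate feeding induces, rose 10.2-fold from 0.934, 0.722 and 1.03 CPM to 9.65, 13.1 and 4.8 CPM, and 26.4-fold in wild type (interval of the difference -3.77 to 1.02). Elovl5, an elongase, rose in both but by 0.50 on the log2 scale against 1.65, and the difference passed (adjusted p = 0.0038). Fasn was 4.49-fold higher (adjusted p = 0.0298) in Rev KO. That call was lost without any 1 Rev KO library other than ZT8 replicate 3, at 0.095 and 0.101 without ZT8 replicates 1 and 2 and at 0.0549, 0.0798 and 0.0722 without ZT20 replicates 1, 2 and 3. The one that fell was Fads2, a desaturase (log2 -0.42).

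Genes of fatty acid oxidation and other PPARα targets moved both ways. Of 20 tested, 8 rose and 4 fell in Rev KO, against 8.79% and 8.67% of all tested genes. In wild type 10 rose and 2 fell, against 13.8% and 13.9% of all tested genes. Cpt1a, which admits fatty acids to mitochondria, fell by 1.11 on the log2 scale in Rev KO and by 1.45 in wild type, and Ppara itself by 0.73 and 0.96. Acot1, a thioesterase, rose from 3.11, 3.22 and 4.16 CPM to 13.9, 16.3 and 28.7 CPM, 5.58-fold against 5.9-fold. Pdk4, which switches off pyruvate oxidation, rose by 2.00 on the log2 scale against 3.57, a difference that passed (adjusted p = 0.0075). Fgf21 took opposite directions and is described with the other genes that did so. The ω-hydroxylases Cyp4a10 and Cyp4a14 were 7.22-fold and 15.4-fold higher, with Cyp4a14 at 0.571, 1.78 and 4.99 CPM at ZT8 and at 90.6, 16.3 and 8.13 CPM at ZT20. The adjusted p of Cyp4a10 was 0.0354, and was 0.052 to 0.118 without Rev KO ZT8 replicate 1 or 2, Rev KO ZT20 replicate 1 or 2, or replicate 2 of wild-type ZT8 or ZT20. That of Cyp4a14 was 0.048, and was 0.0588 to 0.142 on leaving out any library other than Rev KO ZT20 replicate 3 and wild-type ZT20 replicate 3. Both folds rested on ZT20 replicate 1, without which the log2 change was 1.89 in place of 2.85 for Cyp4a10 and 2.30 in place of 3.94 for Cyp4a14.

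Part of the autophagy genes fell at night. Of 17 tested, 7 fell, 10 did not pass and none rose in Rev KO, where 8.67% of all tested genes fell. In wild type 7 fell and 1 rose, against 13.9% and 13.8% of all tested genes, and 6 were called in both. All 7 that fell in Rev KO were kept within 1.5-fold of the wild-type change. Ulk1, the kinase that starts autophagosome formation, was at 109, 112 and 142 CPM at ZT8 and at 56.0, 61.9 and 61.0 CPM at ZT20, 2.04-fold lower (adjusted p = 8.57e-06) and 2.25-fold lower in wild type (interval -0.15 to 0.44). Gabarapl1, a member of the ATG8 family, fell 1.94-fold against 1.76-fold, from 306, 332 and 302 CPM to 156, 159 and 170 CPM. Wipi1 fell 1.8-fold against 1.79-fold and Map1lc3b, which encodes LC3B, 1.41-fold against 1.36-fold. The median over the 17 was -0.25 in Rev KO and -0.19 in wild type.

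Some bile acid and sterol export genes fell as well. Of 14 tested, 5 fell, 9 did not pass and none rose in Rev KO, against 8.67% of all tested genes that fell. In wild type 6 fell and 4 rose, against 13.9% and 13.8% of all tested genes. Abcg5 and Abcg8, whose products form the sterol exporter of the canalicular membrane, fell 1.79-fold and 1.87-fold in Rev KO and 2.9-fold and 3.22-fold in wild type. Both differences passed (0.70 ± 0.12, adjusted p = 0.00203, and 0.78 ± 0.14, adjusted p = 0.00399). Abcg8 was at 110, 114 and 124 CPM at ZT8 and at 65.8, 60.4 and 59.7 CPM at ZT20 in Rev KO and at 214 to 224 CPM and 60.1 to 82.6 CPM in wild type, so that the genotypes met at ZT20. Cyp7a1, the rate-limiting enzyme of bile acid synthesis, fell 3.37-fold (adjusted p = 0.0264) from 415, 466 and 647 CPM to 70.3, 143 and 240 CPM. This call was lost without ZT8 replicate 2 or 3 (0.0587 and 0.0733) and without ZT20 replicate 2 (0.0927). Slco1b2, an uptake transporter, fell 1.57-fold against 1.49-fold and was kept. Cyp8b1, which sets the share of cholic acid, rose by 0.97 on the log2 scale in wild type and did not pass in Rev KO (-0.43), and the difference passed (adjusted p = 0.025).

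**Figure D4:**
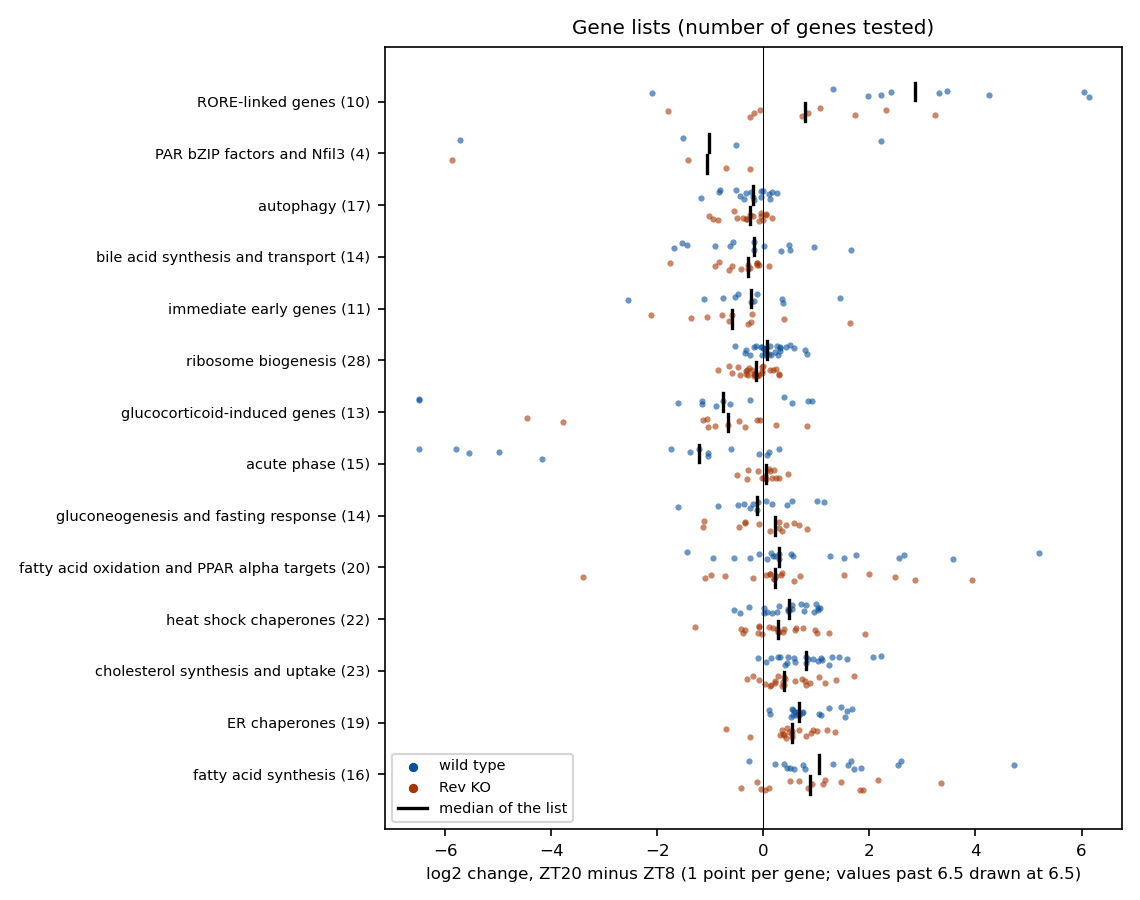
Log2 change from ZT8 to ZT20 of the tested members of 14 gene lists (number tested in brackets) in wild type (blue) and Rev KO (brown), with black bars at list medians. The RORE-linked genes sit at a median of 0.79 in Rev KO and 2.86 in wild type, the acute phase genes reach far below 0 in wild type (median -1.22) and not in Rev KO (0.0441), and the medians of ER chaperones, fatty acid synthesis and autophagy lie close in both.

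Smaller groups passed in part, to be read beside the 8.79% of all tested genes that rose and the 8.67% that fell in Rev KO. For wild type these shares were 13.8% and 13.9%. Of 13 genes known to be induced by glucocorticoids, 3 fell (Per1, Dusp1 and Klf9) and 1 rose in Rev KO, against 6 and 2 in wild type. Dusp1, a phosphatase of MAP kinases, was at 38.5, 41.8 and 36.5 CPM at ZT8 and at 12.1, 20.1 and 24.0 CPM at ZT20, 2.08-fold lower. Tat, a tyrosine aminotransferase, rose 1.77-fold against 1.45-fold. Tsc22d3, which encodes GILZ, rose by 0.91 on the log2 scale in wild type and was at -0.06 in Rev KO, a difference that passed (adjusted p = 0.0014). Of 28 ribosome biogenesis genes, 5 fell and none rose in Rev KO, a share near the 17.5% of all tested genes called, while 4 fell and 6 rose in wild type. One of the 5, Nob1 (adjusted p = 0.0485), was lost at 0.0674 to 0.194 without Rev KO ZT8 replicate 1 or 2, Rev KO ZT20 replicate 1 or 2, or replicate 2 of wild-type ZT8 or ZT20. Rrn3, an initiation factor of RNA polymerase I, fell 1.57-fold from 33.8, 33.5 and 29.2 CPM to 19.1, 20.1 and 22.0 CPM. Of 11 immediate early genes, 4 fell in Rev KO, and Atf3 fell 2.56-fold, from 3.22, 2.11 and 2.54 CPM to 1.38, 1.09 and 0.578 CPM, with a log2 change of 0.35 that did not pass in wild type (difference -1.71 ± 0.41, adjusted p = 0.0225). None of 15 acute phase genes passed in Rev KO (edgeR, 0 also at an unadjusted p under 0.05 and by DESeq2), where Fga and Fgb were at log2 changes of 0.04 and -0.03, and 8 fell in wild type, where the ZT8 libraries with high sums are. Junb, another of the 4 immediate early genes, was lost without Rev KO ZT8 replicate 1 or 3 or ZT20 replicate 2 or 3 (edgeR, adjusted p = 0.0586 to 0.0807). In gluconeogenesis and the fasting response, 2 of 14 rose and 3 fell. Of the 2 that rose, Ppargc1a (edgeR, adjusted p = 0.0472) was lost at 0.121 to 0.179 without Rev KO ZT8 replicate 2 or 3 or ZT20 replicate 1 or 2. It was also lost without some single wild-type libraries. Got1, a transaminase of the malate shuttle, fell 2.16-fold from 369, 384 and 366 CPM to 139, 164 and 215 CPM, and the change of -0.20 in wild type did not pass (difference -0.92 ± 0.22, adjusted p = 0.0274). Of 11 glycogen genes 2 rose and 1 fell. Both rises, of Ppp1r3c and Gsk3b, were lost without Rev KO ZT8 replicate 2 (edgeR, adjusted p = 0.054 and 0.058). Of 17 drug-metabolizing cytochromes and regulators 2 rose and 2 fell, and of 16 cell cycle genes 1 rose and 1 fell. Both of the latter shares are near the 17.5% of all tested genes called. Mcm2, the cell cycle gene that rose, was lost without Rev KO ZT8 replicate 1 or 2 or ZT20 replicate 1 (edgeR, adjusted p = 0.0873 to 0.0915). Neither of 2 cold-inducible RNA binders passed (edgeR, 1 at an unadjusted p under 0.05 and 0 by DESeq2). Cirbp, one of them, was at 0.27 on the log2 scale (adjusted p = 0.0645) and passed without Rev KO ZT8 replicate 1 (0.0448) or ZT20 replicate 1 (0.0152).

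Some genes were called in opposite directions. Fgf21, a fasting hormone of the liver, was at 3.53, 4.16 and 4.31 CPM at ZT8 and at 0.21, 0.623 and 0.267 CPM at ZT20 in Rev KO, a fall of 10.6-fold (adjusted p = 1.74e-05). In wild type it rose 3.37-fold, from 0.305 to 0.598 CPM to 1.16 to 2.37 CPM, and the difference was -5.16 ± 0.51 (adjusted p = 2.05e-05). Nupr1, a stress-induced chromatin protein, was at 10.8, 10.7 and 4.99 CPM at ZT8 and at 0.713, 0.74 and 0.578 CPM at ZT20, 12.9-fold lower in Rev KO and 2.74-fold higher in wild type. Tmc5, which encodes a transmembrane channel-like protein, was at 5.61, 5.55 and 10.9 CPM at ZT8 and had no read in any Rev KO library at ZT20, at least 58.7-fold lower with 3 counts per library as the floor, while it rose 7.44-fold in wild type. Ctse, an intracellular protease, was at 8.25, 9.16 and 11.0 CPM and then at 0.126, 0.311 and 0.0444 CPM, the last 3 with few reads. Ren1, which encodes renin, was at 1.45, 1.11 and 1.61 CPM and then at 0.042, 0 and 0 CPM. Both rose in wild type (2.47-fold and 3.29-fold). Ctse (chr1:131638306-131675505) and Ren1 (chr1:133350510-133360325) both lie on chromosome 1 in mm10. Each time was sampled in different mice of a mixed 129Ola/C57BL6 background. For genes near 0 in every library of 1 group, as here and for Rps3a1 in wild type at ZT20, a difference between times and a difference between the alleles those mice carry cannot be told apart.

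Other genes were called in Rev KO and not in wild type. Grk5, a kinase of G protein-coupled receptors, fell 2.74-fold from 13.1, 13.1 and 8.52 CPM to 5.08, 3.85 and 3.69 CPM, and the wild-type level was 3.05 to 5.00 CPM at both times (difference -1.83 ± 0.27, adjusted p = 0.00073). Adh1, the main alcohol dehydrogenase, rose 1.53-fold and was at a log2 change of -0.04 in wild type (difference 0.65 ± 0.14, adjusted p = 0.012). Serpine2, a protease inhibitor and among the largest rises, was at 2.54, 3.78 and 3.57 CPM at ZT8 and at 23.9, 38.5 and 60.0 CPM at ZT20, 12.4-fold higher. Its difference from wild type, 3.35 ± 0.87, did not pass by edgeR (adjusted p = 0.0636) but did by DESeq2 (0.00408). Hunk, a kinase, rose from 1.40, 1.94 and 2.10 CPM to 6.42, 7.13 and 6.58 CPM (log2 1.88). Its difference from wild type, 2.04, passed (adjusted p = 0.0204) but not without wild-type ZT8 or ZT20 replicate 2, Rev KO ZT8 replicate 1 or 2 or Rev KO ZT20 replicate 2 (0.0539 to 0.0612), nor without both wild-type ZT8 libraries high in acute phase RNA (1.36, adjusted p = 0.179). Conversely Ddc, an aromatic amino acid decarboxylase, rose 4.52-fold in wild type and was at 136, 143 and 127 CPM and at 164, 143 and 150 CPM in Rev KO, without a change that passed (difference -2.0 ± 0.16, adjusted p = 1.97e-06). Rps3a1, a ribosomal protein gene with near-identical copies and therefore uncertain, was at 23.0 to 31.6 CPM in all Rev KO and wild-type ZT8 libraries and at 0.84 to 1.02 CPM in wild type at ZT20.

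**Figure D5:**
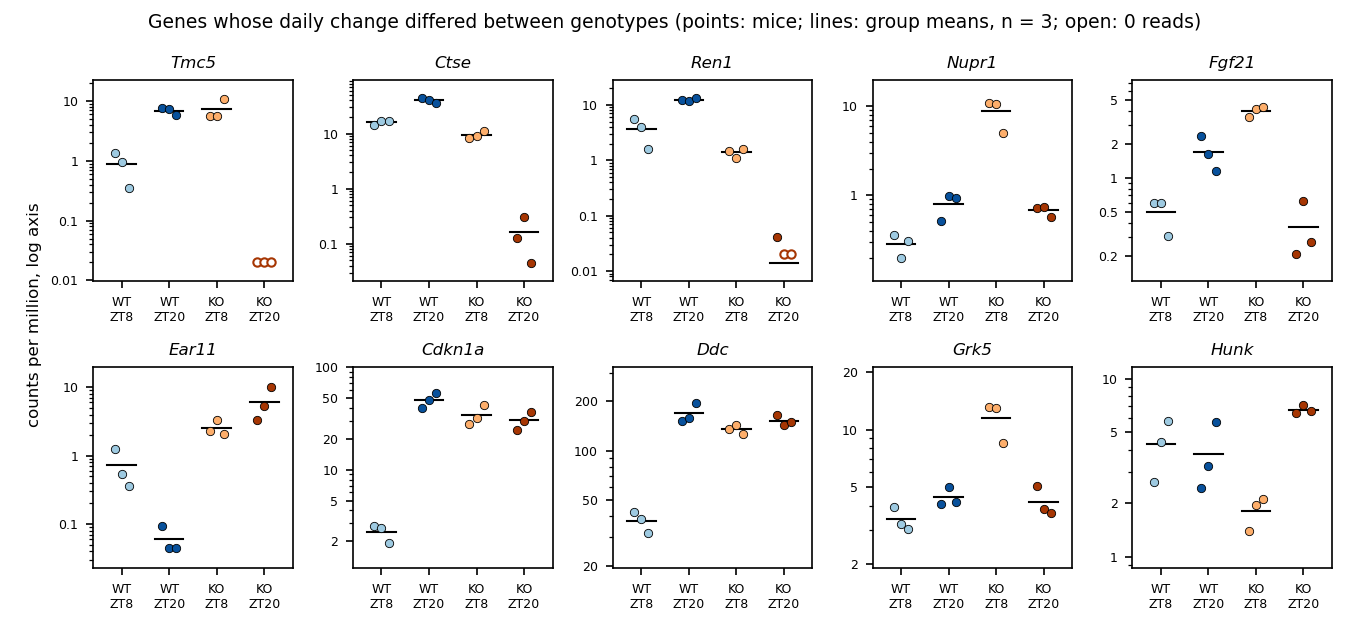
CPM (log axis) in each mouse of 10 genes whose daily changes differed between the genotypes, with lines at group means of 3 mice and open symbols, drawn at 0.02, for libraries with no read. Tmc5, Ctse, Ren1, Nupr1 and Fgf21 are lower at ZT20 in Rev KO and higher at ZT20 in wild type, Ear11 does the opposite, and Cdkn1a and Ddc lie far apart between the times in wild type and close in Rev KO, where neither change passed.

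Sizeable daily changes shared by both genotypes were not limited to clock genes. Rgs16, a regulator of G protein signalling, fell 28.3-fold in Rev KO and 23.4-fold in wild type, from 13.7, 16.7 and 24.1 CPM to 0.671, 0.857 and 0.355 CPM in Rev KO, and its interval of the difference was wide (-1.73 to 1.18). Ccne1, which encodes cyclin E1, fell 6.79-fold against 7.29-fold. Chrna4, a nicotinic receptor subunit, rose 7.4-fold against 13.6-fold, from 4.78, 4.66 and 6.95 CPM to 41.1, 52.1 and 28.6 CPM. Clstn3, a calsyntenin, rose 6.37-fold against 3.76-fold. Pitx3, a homeobox factor, rose 10.6-fold against 39.5-fold, and its difference of -1.90 did not pass by edgeR over 12 libraries (adjusted p = 0.0642) but did by DESeq2 (0.0127) and without Rev KO ZT8 replicate 1 (-2.17, adjusted p = 0.0316) or 2 (-2.13, adjusted p = 0.0496). Cyp2b10, a drug-inducible P450, is not counted among these shared changes, as it was called in Rev KO and not in wild type (adjusted p = 0.0546 by edgeR). It rose 21.5-fold from 0.104, 0.5 and 0.294 CPM to 1.05, 6.04 and 12.3 CPM in Rev KO, a call lost in a fit of the 6 samples alone (adjusted p = 0.0891), and its interval of the difference spanned -3.38 to 5.30. Moxd1, an oxidase-like protein, was at 136, 187 and 303 CPM and then at 17.6, 2.65 and 0.178 CPM in Rev KO. By edgeR this call was lost without Rev KO ZT8 replicate 2 or 3 (adjusted p = 0.0577 and 0.0558) and without ZT20 replicate 2 or 3 (0.101 and 0.057). Wild-type counts of Moxd1 were 858, 5437 and 6901 at ZT8 and 11, 5 and 1 at ZT20.

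Without the 2 wild-type ZT8 libraries high in acute phase RNA, which leaves 1 library in that group, assumed to vary like the others, the differences given above for several genes no longer passed by edgeR. They were -1.81 for Atf3 (adjusted p = 0.0915), -0.97 for Cyp8b1 (0.0958), -0.95 for Elovl5 (0.0568), -1.07 for Got1 (0.0999) and -0.66 for Herpud1 (0.231). Those of Abcg5, Abcg8, Arntl, Clock, Cry1, Nfil3, Elovl3, Insig2, Cdkn1a, Ddc, Fgf21, Nupr1, Tmc5, Ctse, Ren1, Grk5, Adh1, Pdk4 and Tsc22d3 still passed.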

How the data were processed

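Poly(A) RNA of the liver was measured in 12 mice. Per the labels and the methods, the authors aligned the sequences by TopHat (mm10) and kept unique alignments. HTSeq-count then assigned them to genes, by symbol, under its union rule, ignoring strand and requiring an alignment quality of 10. They deposited raw counts for each sample, and a read matching several near-identical genes is not in them. A separate tally of alignments to more than 1 place comes with the counts, so such alignments were still present when reads were counted. The authors' own comparisons, made with DESeq2 1.6.3, were not used. From the counts, edgeR 4.0.16 (R 4.3.3, limma 3.58.1) was used with filterByExpr, TMM scaling and a robust quasi-likelihood fit of 4 group means. Contrasts were ZT20 against ZT8 in each genotype and their difference, each adjusted by Benjamini-Hochberg. Fold changes of single genes are ratios from that fit. The labels do not say whether replicates came from separate litters or days, so p-values measure the spread between these samples. Within groups, all libraries differed beyond counting noise (chi-square per degree of freedom of at least 7.81). The fit was tested on simulated data of 14488 genes. There it called 194 of 200 genes changed 3-fold and 139 of 200 changed 1.5-fold in the Rev KO contrast, and 15 unchanged genes. The changed genes were drawn only from those with higher mean counts, and the counts were simulated with dispersions estimated from these data. These shares therefore do not cover genes with few reads. Alternatives were DESeq2 1.42.0 with and without shrinkage, other scaling, filters and thresholds, a replicate block, only the 6 samples compared, and each sample left out. Named genes are the clock lists, those the study names, the largest changes with a group mean of at least 5 CPM, up to 4 members of each other list, and the largest kept, opposite or genotype-specific changes. Genes outside this rule named with their values (Calr, Herpud1, Elovl5, Cpt1a, Ppara, Pdk4, Fads2, Cyp8b1, Tsc22d3, Dnajb1, Dnaja1) were chosen after their values were seen. The comparison, members and lists were chosen with earlier results of these data known. Markers of neutrophils, erythroid, cholangiocyte and stellate cells gave 1 call higher (Krt19) and 1 lower (Rgs5) in Rev KO, and Cela1 and Cela2a, the 2 tested of 8 pancreatic acinar markers, were lower, with Prss2, Cela3b, Cpa1 and Amy2a5 at 0 in Rev KO. Summed acinar markers were at 44.8 to 60.5 CPM at ZT8 and 29.5 to 40.6 CPM at ZT20 in Rev KO, and their part in the results was not tested. Older symbols in the files were Gm129 for Ciart, Sc4mol for Msmo1 and Emr1 for Adgre1. Some genes that the rule names are not reported here.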

Additional observations from a re-analysis of the deposited data

Results flagged for a closer look

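The daily change differed between the genotypes, by the fitted difference of the changes with an adjusted p under 0.05 (edgeR's quasi-likelihood test), for 30 of the named genes. Values are log2 changes in Rev KO minus those in wild type. Among clock and RORE-linked genes they were -5.2 for Arntl, -2.9 for Npas2, -2.48 for Nfil3, -2.24 for Cry1, -1.36 for Clock, -4.44 for Cdkn1a, -1.72 for Elovl3 and -1.68 for Insig2. Other genes with metabolic roles were at -5.16 for Fgf21, -2 for Ddc, -0.915 for Got1, -0.635 for Lipc, 0.65 for Adh1, 0.701 for Abcg5 and 0.784 for Abcg8.

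Among the remaining genes, the differences were -13.2 for Tmc5, -10.5 for Cebpe, -7.88 for Ren1, -7.09 for Ctse, -6.64 for Cyp2a4, -6.5 for Nuggc, -5.14 for Nupr1, -1.83 for Grk5 and -1.71 for Atf3. They were 2.04 for Hunk, 2.06 for Hcn3, 4.43 for Marco, 4.82 for Ear11, 5.03 for Rps3a1 and 7.57 for Aim1l. Tmc5 and Cebpe had no read in any Rev KO library at ZT20, so that their fitted values are no measure of size, and the bounds with 3 counts per library as the floor are at least 58.7-fold and at least 24.4-fold lower at ZT20. The differences of Cebpe, Cyp2a4, Hcn3, Hunk, Marco and Ear11 no longer passed on leaving out some single libraries, and those of Atf3, Cyp2a4, Got1, Hcn3, Hunk, Lipc, Marco and Npas2 no longer passed without wild-type ZT8 replicates 2 and 3.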

How the results depend on the processing

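The Rev KO count of 2530 was 2163 to 2579 with DESeq2, other scaling, other filters or only the 6 samples compared, and 2396 of the 2530 genes were also called by DESeq2 on all 12 samples. At an adjusted p of 0.01, 1231 genes passed in Rev KO (606 higher, 625 lower), 2343 in wild type, 726 in both in the same direction and 357 for the difference. With a limit of 2-fold, 1907 changes were kept. On leaving out 1 library at a time, the counts ranged from 1567 to 2845 in Rev KO (789 to 1419 higher, 767 to 1426 lower), from 2861 to 4197 in wild type, from 493 to 1260 for the difference, from 976 to 1541 in both and from 697 to 1298 kept. Without both wild-type ZT8 libraries high in acute phase RNA, a choice made after seeing the data, 1795 passed in wild type, 900 in both and 493 for the difference. Replicate numbers did not pair the samples (correlations of same-numbered deviations -0.0832 to 0.0738), and with the replicate block 2399 genes passed in Rev KO.

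Of 2611 values of single genes under these settings, 176 lost a call (27 genes), 28 gained one (8 genes) and 19 changed sign (11 genes). Changes that crossed 0 on leaving out 1 library are given from lowest to highest. In Rev KO they were -0.121 to 0.0165 for Clock, -0.253 to 0.0186 for Per2 (0.00968 without another library), -0.333 to 0.00804 for Cdkn1a, -0.0505 and -0.0483 against 0.04 for Fga, -0.102 to 0.0386 for Fgb (0.0301 without another) and -0.973 to 0.467 for Cyp2a4 (-0.00369 without another), which was -0.00353 with the replicate block. None of these was called. Differences were -0.414 to 0.101 for Dbp, -0.593 to 4.47 for Adgb, -1.36 to 0.0895 for Ccl27a and -0.641 to 0.847 for Wif1 (-0.0929 and -0.0306 without others). Without both wild-type ZT8 libraries they were 0.15 for Rgs16 and -0.856 for Wif1. The causes were not tested. Depth limits levels under 3 counts, 0.117 to 0.167 CPM.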

Other observations

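Other daily changes of at least 2-fold in Rev KO were kept within 1.5-fold of wild type in genes outside the lists. Gch1, the first enzyme of tetrahydrobiopterin synthesis, was at a log2 change of -1.14 in Rev KO and -0.85 in wild type. Ripk2, a kinase of innate immune signalling, was at -1.40 and -1.42, and Casp6, a caspase, at -1.01 and -0.91. Cgn, which encodes the tight junction protein cingulin, was at 1.21 and 1.31, and Clcn6, a chloride transporter of endosomes, at 1.15 and 1.35. The mitochondrial ribosomal RNAs mt-Rnr1 and mt-Rnr2 were at -1.03 and -1.09 in Rev KO and at -1.13 in wild type for each. These genes were named after their values were seen. The libraries were made from the poly(A) tail, and alignments to more than 1 place per counted read were fewer at ZT20 in both genotypes. The part of either in the values of the mitochondrial ribosomal RNAs was not tested.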
